A study of Mus musculus with 85 samples.

Results

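The presynaptic release machinery was described here through 35 genes, which were found by symbol in a table of hippocampal gene expression from 85 mice. All 35 were present, 32 of them on 1 row of the table, and the rows of Rab3a, Rims1 and Nrxn2, on 2 rows each, were summed. Napb shared its locus with a second annotated gene, so its value was that of the joined locus. The table held 53891 loci after rows of the same symbol were summed, and 21297 of them, all 35 genes included, reached 1 FPKM in at least 10 libraries and were tested.

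Mice of the strain APPswePSEN1dE9 (AD) were compared with C57BL/6J control mice, on methionine-restricted or on standard feed, in both sexes, all at an age of 8 months. The female groups were FADMR (AD strain, restricted feed, n = 11), FWTMR (control, restricted feed, n = 10), FAD (AD strain, standard feed, n = 11) and FWT (control, standard feed, n = 10). The male groups were MADMR (n = 11), MWTMR (n = 10), MAD (n = 11) and MWT (n = 11), named in the same way. The strain carries transgenes for a mutant amyloid precursor protein and a mutant presenilin under a prion protein promoter, so the locus that holds Prnp, the prion protein gene, reads out the genotype. The labels gave no litter, cage or extraction batch, so p-values measured the spread between single mice.

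A nerve terminal releases transmitter when calcium entry drives docked vesicles to fuse with its membrane. SNARE proteins on vesicle and plasma membrane pull the membranes together, synaptotagmins sense the calcium, and scaffolds of the active zone hold primed vesicles near the calcium channels. After fusion the ATPase NSF takes the SNARE complexes apart, and dynamin, amphiphysin, endophilin and synaptojanin recover the membrane by endocytosis. In the hippocampus most of these terminals are glutamatergic and load their vesicles through the transporter encoded by Slc17a7.

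Values are FPKM (fragments per transcript length and sequencing total) as deposited, divided by a median-of-ratios factor for each library that lay between 0.867 and 1.11. Read counts were not used here and the sequencing depth of the libraries is unknown. The total of deposited FPKM lay between 939248 and 1066927 per library, and no 2 libraries were identical. The Prnp locus averaged 1202 ± 165 scaled FPKM in AD mice and 336 ± 53.5 in control mice (SD, n = 44 and 41), with no overlap between 874 as the lowest AD value and 453 as the highest control value. Xist lay between 23.1 and 198 scaled FPKM in females and between 0.110 and 0.868 in males. Of 15 hippocampal markers 14 were tested, and their summed level lay between 1000 and 4040 scaled FPKM. Prox1 and Dsp, markers of the dentate gyrus, were at 0.481 and 0 in their lowest libraries, against medians of 8.81 and 9.36.

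Per length, the 35 genes spanned more than 3 orders of magnitude in mean level. Snap25, the plasma membrane SNARE, was the highest at 2180 scaled FPKM, followed by the endocytic GTPase Dnm1 at 904 and the vesicle protein synaptophysin (Syp) at 769. Unc13a, which primes vesicles, averaged 487, Syt1, the calcium sensor of fast release, 404, and Syn1, a synapsin that tethers vesicles, 392 scaled FPKM. At the low end stood Slc17a6, the glutamate transporter of subcortical neurons, at 1.4, Syt2, a calcium sensor best known from fast hindbrain and interneuron synapses, at 0.684, and the complexin Cplx3 at 0.547 scaled FPKM. Within families the levels were far apart, with Slc17a7 at 232 scaled FPKM beside Slc17a6, Cplx2 at 110 and Cplx1 at 10.6 beside Cplx3, and Vamp2 at 109 beside Vamp1 at 12.3.

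Differences were estimated with limma on log2(scaled FPKM + 1), a scale that understates the change of genes near or below 1 FPKM, and a gene was called at a Benjamini-Hochberg adjusted p under 0.05 over all loci tested. Of the 35 genes, 20 were called between females and males averaged over genotype and feed, 19 lower and 1 higher in females. Among all loci 51% were called in that comparison, 24.6% higher and 26.4% lower, so a large part of the table moved with sex. The median difference was -0.21 over the 35 genes and -0.012 over all loci tested, both on the log2 scale. By role, 5 of 6 active zone and priming genes were lower in females, as were 4 of 9 vesicle proteins, 2 of 3 calcium sensors, 2 of 4 SNARE genes, 2 of 5 SNARE regulators, 2 of 4 endocytic genes, 1 of 2 glutamate transporters and 1 of 2 neurexins. The single gene called higher in females was the neurexin Nrxn2. On standard feed its means were 38.2 (FWT) and 31.2 (FAD) scaled FPKM, against 24.9 (MWT) and 27.7 (MAD). On restricted feed they were close, at 31.5 (FWTMR) and 31.9 (FADMR) against 30.1 (MWTMR) and 30.4 (MADMR). The FWTMR median of 27.1 lay below the male medians of 30.8 (MWTMR) and 30.5 (MADMR). The interaction of feed and sex was not called for Nrxn2 (adjusted p = 0.524). In bulk tissue, fewer terminals or neurons, less RNA per cell and other differences between the libraries of the sexes cannot be told apart.

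Syt1 had a lowest, median and highest value of 273, 362 and 489 scaled FPKM in females and 269, 439 and 648 in males. Its difference was -0.26 ± 0.05 (log2, SE, adjusted p = 1.33e-05), with 37 of 42 females below the male median. The lowest values of the sexes were close together, while the male values reached further up. In the 4 female groups the medians were 385 (FADMR), 351 (FWTMR), 387 (FAD) and 350 (FWT) scaled FPKM, all below those of the 4 male groups at 424 (MADMR), 449 (MWTMR), 416 (MAD) and 442 (MWT). This order did not hold in every gene called lower in females. The median of Vamp2 was 107 in FADMR against 95.7 in MADMR, and that of Rims1 133 in FAD against 111 in MAD. For Sv2c it was 3.03 in FWT against 2.33 in MWT.

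Among active zone genes, Bsn, which encodes the scaffold Bassoon, had a lowest, median and highest value of 45.2, 63.5 and 83.6 scaled FPKM in females and 38.9, 78.0 and 109 in males, a difference of -0.28 ± 0.06 (log2, SE, adjusted p = 3.13e-05). Pclo, the related scaffold Piccolo, had 34.7, 47.8 and 167 in females and 39.0, 59.0 and 173 in males, and its call was weak (-0.29, adjusted p = 0.0365). Unc13a, the main hippocampal priming factor Munc13-1, had 205, 455 and 699 scaled FPKM in females and 367, 525 and 748 in males (-0.24, adjusted p = 0.00167). The values of Unc13b, encoding Munc13-2, were 25.5, 53.3 and 73.2 scaled FPKM in females and 32.8, 61.9 and 92.9 in males (-0.23, adjusted p = 0.000676). Rims1, a Rab3-binding scaffold, had 8.79, 112 and 172 in females and 19.4, 137 and 216 in males, with a wide error (-0.55 ± 0.20, adjusted p = 0.0167). Its values fell into a low set of 11 mice, 9 of them female, and a high set of 74 mice. In each of these genes the female centre lay below the male centre while the ranges overlapped. Rims2 was not called (-0.12, adjusted p = 0.128).

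Of the vesicle proteins, Syn1 had a lowest, median and highest value of 277, 361 and 447 scaled FPKM in females and 259, 416 and 564 in males (-0.21 ± 0.04, adjusted p = 6.17e-05). Synpr, or synaptoporin, a synaptophysin relative of mossy fibre terminals, had 136, 345 and 635 in females and 230, 440 and 606 in males (-0.30 ± 0.08, adjusted p = 0.000694). Syn3 had 2.89, 37.9 and 56.0 scaled FPKM in females and 4.79, 45.5 and 89.2 in males (-0.39, adjusted p = 0.0211). Sv2c, of the SV2 family of vesicle glycoproteins, had 0.150, 3.29 and 5.47 in females and 1.003, 3.85 and 13.2 in males, at the threshold itself (-0.25, adjusted p = 0.0499). Synaptophysin gave the narrowest interval of the 35 genes and was not called: its lowest, median and highest values were 623, 767 and 922 scaled FPKM in females and 546, 775 and 956 in males, a difference of 0.01 with a 95% interval of -0.056 to 0.077. Syn2, Sv2a, Sv2b and Rab3a, the vesicle GTPase, were not called either. For Sv2b the interval ran from -1.04 to 0.59, the widest of the 35 genes.

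Of the SNARE genes, Vamp2, the vesicle SNARE of fast release, had a lowest, median and highest value of 80.3, 102 and 139 scaled FPKM in females and 78.5, 118 and 167 in males (-0.18 ± 0.05, adjusted p = 0.00113). Snap25 had 518, 2087 and 2643 in females and 1263, 2286 and 3043 in males (-0.19, adjusted p = 0.0257). Stx1a, the syntaxin of the plasma membrane, had an estimate of the other sign that missed the threshold (0.13, adjusted p = 0.057). The complexin Cplx1, which clamps assembled SNAREs, had 5.74, 9.54 and 12.8 scaled FPKM in females and 6.76, 11.4 and 19.3 in males (-0.21, adjusted p = 0.000865). Nsf had 166, 319 and 440 in females and 205, 371 and 539 in males (-0.22, adjusted p = 0.000802). Their estimates lay close to that of Syn1. Cplx2, Cplx3 and Napb, a SNAP protein that couples NSF to SNAREs, were not called.

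Among endocytic genes, Sh3gl2, which encodes endophilin A1, had a lowest, median and highest value of 16.6, 22.8 and 30.3 scaled FPKM in females and 15.4, 27.9 and 44.0 in males (-0.26 ± 0.06, adjusted p = 8.96e-05). Amph, amphiphysin, had 88.9, 126 and 175 in females and 35.8, 159 and 229 in males (-0.32 ± 0.07, adjusted p = 0.000226). The lowest value of both genes was a male one, although 39 and 37 of 42 females lay below the male median. Dnm1 and Synj1 were not called (-0.20 and -0.22, adjusted p = 0.156 and 0.236). The Rab3 effector Rph3a had 20.2, 41.4 and 93.7 scaled FPKM in females and 26.4, 49.6 and 105 in males (-0.25, adjusted p = 0.0122). Slc17a7 had 165, 218 and 288 in females and 147, 242 and 344 in males (-0.15, adjusted p = 0.0128), and Slc17a6 was not called. The neurexins, presynaptic adhesion molecules, took opposite signs: Nrxn3 had 2.60, 8.63 and 24.6 scaled FPKM in females and 4.35, 11.3 and 22.0 in males (-0.30, adjusted p = 0.0148), whereas Nrxn2 had 17.96, 32.3 and 60.6 in females and 15.9, 27.6 and 45.6 in males (0.20, adjusted p = 0.029).

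**Figure D1:**
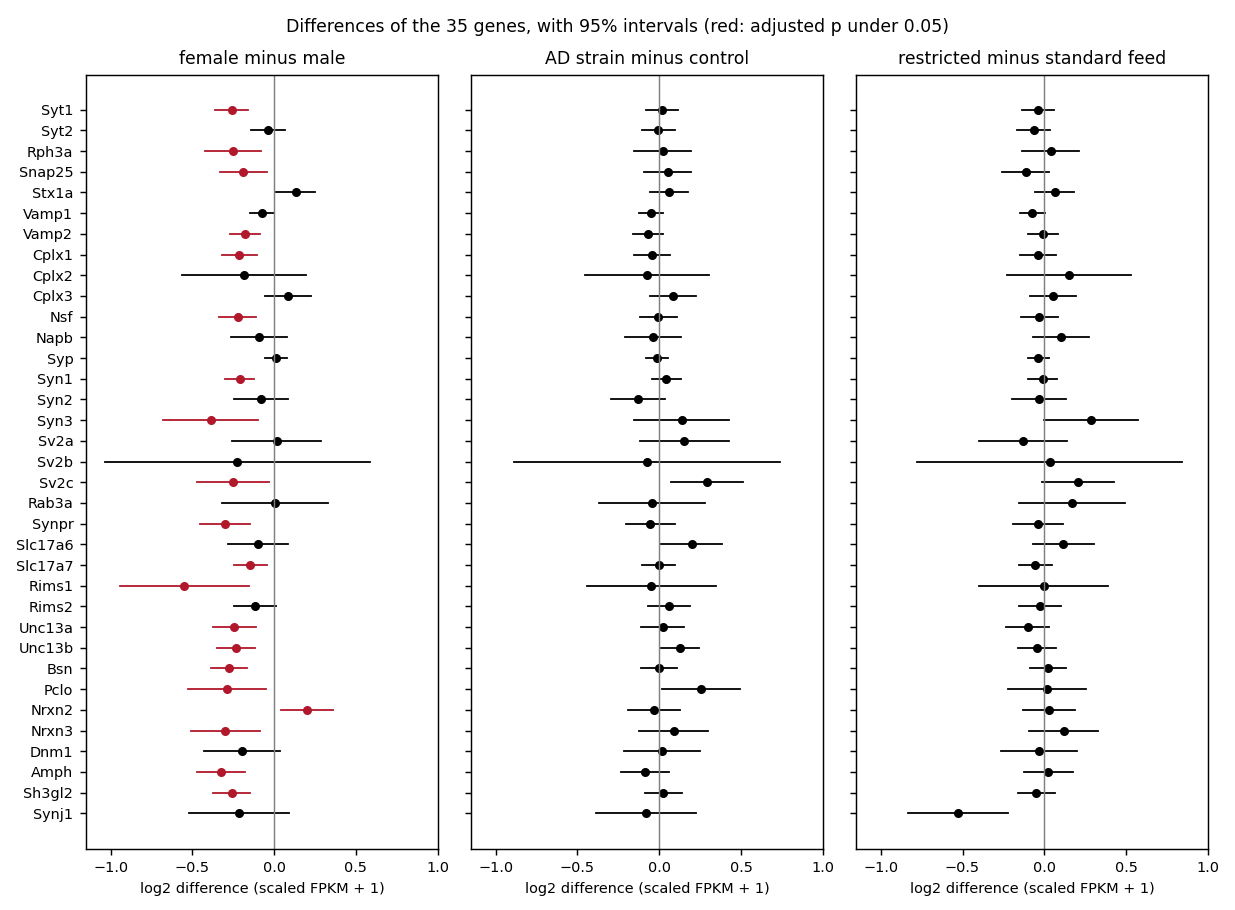
Log2 difference of each of the 35 genes (x axis, log2 of scaled FPKM + 1) between females and males, AD and control mice, and restricted and standard feed, each averaged over the other factors, as points with 95% intervals. Red marks the 20 genes called between the sexes, 19 of them left of 0, while no gene is red for genotype or feed.

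**Figure D2:**
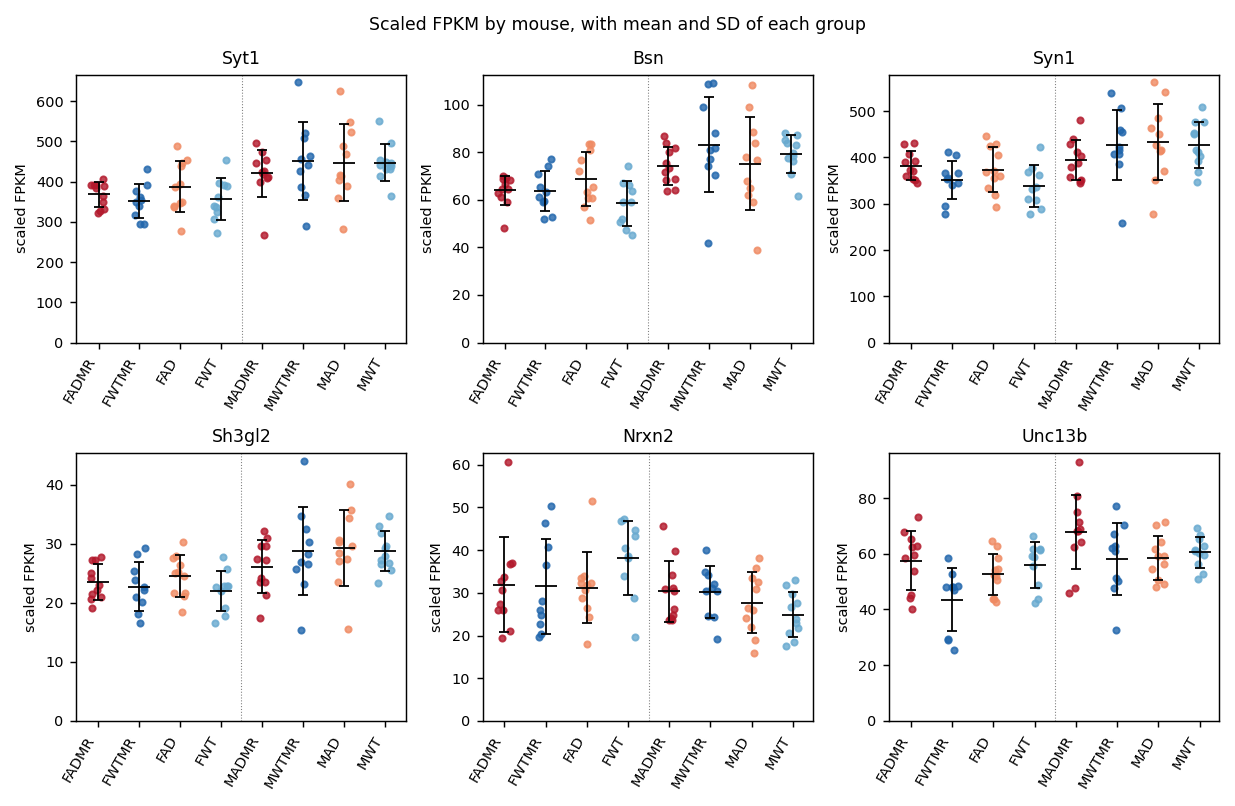
Scaled FPKM (y axis, from 0) of 6 genes in each mouse of the 8 groups, females left and males right of the dotted line, with the mean and SD of each group in black. Syt1, Bsn, Syn1 and Sh3gl2 have lower centres in the 4 female groups with overlapping ranges. Nrxn2 has higher means in the female groups, close to the male ones on restricted feed. For Unc13b the FWTMR mice have the lowest mean of all groups.

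Several measures of the libraries moved with sex as well. The share of FPKM in loci without a gene symbol was 7.83 ± 1.54% in females and 6.5 ± 1.3% in males (SD, n = 42 and 43), and the number of loci at 1 FPKM or more was 19171 ± 440 in females and 18506 ± 470 in males. Summed over the 13 tested of 15 neuronal markers, the level had a median of 7640 scaled FPKM in females and 9350 in males, the range being 5570 to 10300 in females and 6800 to 14900 in males. Most of this sum was Map2, with a median of 7180 over all mice, and of the 13 markers 2 were called higher and 4 lower in females. Of the hippocampal markers 3 of 14 were lower in females and none higher, their sum having a median of 2370 in females and 2890 in males, with a range of 1000 to 3780 in females and 1410 to 4040 in males. Of the endothelial markers 7 of 7 tested, of the astrocyte markers 5 of 8 and of the neocortex markers 4 of 11 were lower in females, while 4 of 8 meningeal markers and 1 neocortex marker were higher. None of 12 tested choroid plexus markers and none of 12 tested oligodendrocyte markers was called. Among all loci tested 26.4% were called lower and 24.6% higher in females, so counts near these shares do not set a marker list apart. Of the measures above, only the share without a symbol and the neuronal, meningeal and choroid plexus marker means entered the covariate fits that follow. The part of the others in the sex differences of the 35 genes was not tested.

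With the mean levels of the choroid plexus, thalamus, striatum and meningeal markers as covariates, 12 of the 35 genes were called between the sexes. Of these, 1 was higher and 11 were lower in females, and with the neuronal mean 2 were higher and 12 lower. The same fits called 4375 loci higher and 4341 lower in females with the tissue means and 4144 higher and 4424 lower with the neuronal mean. These counts were of 21297 loci, beside 5232 higher and 5633 lower without covariates. With the share of FPKM without a symbol as covariate, an alternative chosen after the data were seen, 2 were higher and 1, Syt1, was lower in females (-0.12, adjusted p = 0.0384). Calls were lost across the whole table in that fit, which left 2074 loci higher and 2330 lower in females. The difference of Slc17a7 then took the other sign (0.01, adjusted p = 0.899). On FPKM as deposited 3 genes were higher and 11 lower in females, while the share of all called loci that were higher in females went to 68.8%, against 48.2% with median-of-ratios scaling. Under each of these settings the median of the 35 genes lay below that of all loci, from -0.0754 beside -0.00631 with the share as covariate to -0.13 beside 0.05 on deposited values. Leaving out a single library gave between 18 and 21 called genes. Pclo lost its call without any one of FWTMR replicate 5, MADMR replicate 2, MWTMR replicate 4, MAD replicates 1, 8 and 12 and MWT replicate 1 (adjusted p up to 0.0634), and Sv2c lost its call without any one of 49 libraries (adjusted p up to 0.091).

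Further presynaptic genes, 94 on a list of which 77 were tested, held 5 called higher and 34 called lower in females, with a median difference of -0.14 (log2). The share called was 50.6%, near the 51% of all loci called in this comparison. The 10 with the smallest p were Itsn2 (-0.25), Cacna2d1 (-0.28), Erc1 (-0.22), Vamp7 (-0.27), Rab3gap2 (-0.17), Napg (-0.21), Mctp1 (-0.50), Rab27b (-0.38) and Adgrl3 (-0.41), all lower in females, and Ap2s1 (0.16), higher in females. Of these, Itsn2 is an endocytic scaffold, Cacna2d1 a calcium channel subunit, Erc1 an active zone scaffold of the ELKS family, Adgrl3 an adhesion receptor and Ap2s1 a subunit of the clathrin adaptor AP2. Cacna2d1 averaged 93.6 ± 13.3 scaled FPKM in females and 114 ± 15.6 in males (SD, n = 42 and 43), and Mctp1 118 ± 28.3 in females and 170 ± 52.0 in males.

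Genotype left the 35 genes without a call. Averaged over sex and feed, 0 of 35 differed between AD and control mice, against 1.7% of all loci, and their median difference was 0.0013 beside -0.0062 over all loci (log2). At an unadjusted p under 0.05 there were 4 of 35 genes (11.4%), beside 13.2% of all loci. For 33 of the 35 genes the 95% interval of the difference lay within 0.5 log2 units of 0. The narrowest was that of Syp, with a half-width of 0.0664, and the widest that of Sv2b, with 0.811. None of the 77 further presynaptic genes was called by genotype or by feed.

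The smallest p by genotype belonged to Sv2c, at 0.29 ± 0.11 (log2, SE, p = 0.00974, adjusted p = 0.2). Its lowest, median and highest values were 1.999, 3.46 and 5.40 scaled FPKM in FADMR against 0.150, 3.29 and 4.32 in FWTMR, and 0.186, 3.35 and 5.47 in FAD against 0.185, 3.03 and 3.74 in FWT. In males they were 2.97, 4.09 and 13.2 in MADMR against 2.65, 3.91 and 5.69 in MWTMR, and 2.56, 3.97 and 9.48 in MAD against 1.003, 2.33 and 5.03 in MWT. The groups overlapped in every pair. The next by p were Unc13b (0.13, p = 0.0314), Slc17a6 (0.20, p = 0.0368), Pclo (0.25, p = 0.0372), Syn2 (-0.13, p = 0.13) and Vamp2 (-0.07, p = 0.146), with adjusted p of 0.318 and above.

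Within single combinations of sex and feed, 1 gene was called by genotype. Unc13b was higher in FADMR than in FWTMR, where 1.34% of all loci were called. Its values were 40.2, 59.6 and 73.2 scaled FPKM in FADMR, against 25.5, 48.0 and 58.6 in FWTMR, as the lowest, median and highest of each group. The difference was 0.42 ± 0.12 (log2, SE, adjusted p = 0.0432), with 8 of 11 AD mice above the control median. The ranges overlapped between 40.2 and 58.6. This call did not hold under 8 of 13 other settings, and the estimate lay between 0.36 and 0.46 over all 13. It was also lost without any one of FADMR replicates 1, 2, 6, 7, 9, 10 and 11 and FWTMR replicates 5, 6 and 7, with adjusted p between 0.0506 and 0.162. These FWTMR replicates had the highest shares of FPKM without a symbol in their group, at 10.8%, 9.94% and 10.3%. The group means of that share were 8.3% in FWTMR and 7.42% in FADMR, and the share as covariate was among the settings that lost the call.

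In the other pairs Unc13b was not called by genotype. Its lowest, median and highest values were 42.8, 52.3 and 64.7 scaled FPKM in FAD, against 42.3, 59.1 and 66.3 in FWT, a difference of -0.08 (adjusted p = 0.801). In males they were 46.0, 68.2 and 92.9 in MADMR, against 32.8, 61.5 and 77.3 in MWTMR (0.23, adjusted p = 0.472), and 48.1, 59.3 and 71.4 in MAD, against 51.0, 60.9 and 69.3 in MWT (-0.05, adjusted p = 0.976). The FWTMR mice thus had the lowest median of all 8 groups. The test of the difference itself, genotype by feed, gave 0.39 ± 0.12 with an unadjusted p of 0.00119 and an adjusted p of 0.936, so it was not called. By genotype, 0 of 35 genes were called in FAD against FWT (0.549% of all loci), in MADMR against MWTMR (0.122%) and in MAD against MWT (0.0657%). The smallest unadjusted p in these comparisons were those of Bsn (0.23, p = 0.043) in FAD against FWT, Vamp2 (-0.23, p = 0.0191) in MADMR against MWTMR and Sv2c (0.56, p = 0.0121) in MAD against MWT. The counts over all loci behind these shares were themselves unstable and moved by more than 1.5 times without single libraries.

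Feed left the 35 genes without a call as well, averaged over sex and genotype (0.117% of all loci called). In single groups of mice 0 of 35 genes were called by feed as well. The share of all loci called there was 0.0141% in AD females, 0.0657% in control females, 0.0141% in AD males and 0% in control males. Averaged over sex and genotype, the smallest p was that of Synj1, which encodes the phosphatase synaptojanin, at -0.53 ± 0.15 (log2, SE, p = 0.000992, adjusted p = 0.184). Its lowest, median and highest values were 58.1, 304 and 403 scaled FPKM in FADMR against 153, 332 and 375 in FAD, and 67.6, 240 and 390 in FWTMR against 114, 326 and 443 in FWT. They were 104, 201 and 481 in MADMR against 146, 361 and 617 in MAD, and 129, 310 and 433 in MWTMR against 137, 389 and 597 in MWT. The median was lower on restricted feed in all 4 pairs, and the ranges overlapped in each. In control females, the estimate for Unc13b was -0.39 between FWTMR and FWT (p = 0.00167, adjusted p = 0.242). The next by p on average were Syn3 (0.29, p = 0.0532), Vamp1 (-0.07, p = 0.0559), Sv2c (0.21, p = 0.0666), Snap25 (-0.11, p = 0.121) and Unc13a (-0.10, p = 0.127).

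Of the 3 interactions, genotype by sex was called for 0.934% of all loci, genotype by feed for 0.0047% and feed by sex for 0%. None of them was called for any of the 35 genes. The smallest p by genotype and sex was that of Syn2 (0.39, p = 0.021, adjusted p = 0.156), which had an estimate of -0.34 in MAD against MWT and of 0.18 in FAD against FWT. By feed and sex it was that of Nrxn2 (-0.35, p = 0.0307, adjusted p = 0.524). For these interactions the median half-width of the interval was 0.296 log2 units, so differences below that size were often not measurable here.

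The spread between mice of a group differed widely among the 35 genes. Their median within-group SD was 0.346, against 0.284 for all loci tested (log2). The SD was 0.152 for Syp, 0.168 for Vamp1 and 0.203 for Syn1, while 10 genes had an SD over 0.5. Those were Sv2b (1.9), Rims1 (0.925), Cplx2 (0.888), Rab3a (0.76), Synj1 (0.718), Syn3 (0.678), Sv2a (0.633), Pclo (0.557), Dnm1 (0.548) and Sv2c (0.515).

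For 4 of the genes the values fell apart into a low and a high set of mice, separated by an empty gap of at least 0.5 log2 units with at least 5 mice on either side, as was the case for 6.94% of all loci. Sv2b had 17 mice at 1.53 scaled FPKM or less and 68 mice at 27.7 or more, with none between. The low mice were 3 in FADMR, 2 in FWTMR, 1 in FAD, 2 in FWT, 1 in MADMR, 2 in MWTMR, 4 in MAD and 2 in MWT. Rab3a had 24 mice at 186 or less and 61 at 279 or more, with 2 to 4 low mice in each group. Rims1 had 11 mice at 39.9 or less, 9 of them female, and 74 mice at 62 or more. Dnm1 had 8 mice at 340 or less and 77 at 616 or more. These sets were seldom the same mice. Of the 17 mice low in Sv2b, 7 were low in Rab3a (41.2% of the Sv2b set and 29.2% of the Rab3a set), 1 was low in Rims1 and 1 in Dnm1. Of the 11 mice low in Rims1, 4 were low in Rab3a and 2 in Dnm1. No label separated the low from the high mice. Rab3a and Rims1 were sums of 2 rows, and the split lay in 1 row of each. In the larger row of Rab3a the low mice lay between 54.6 and 121 scaled FPKM and the high mice between 245 and 455, while in its smaller row the medians were 45.8 and 45.4. In the larger row of Rims1 the low mice lay between 7.45 and 33.6 and the high mice between 58.2 and 211, with medians of 2.84 and 3.13 in the smaller row. The values are those of loci the authors assembled from reads not used here, so it was not tested whether these sets differ in transcript level or in how the loci were assembled and quantified.

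**Figure D3:**
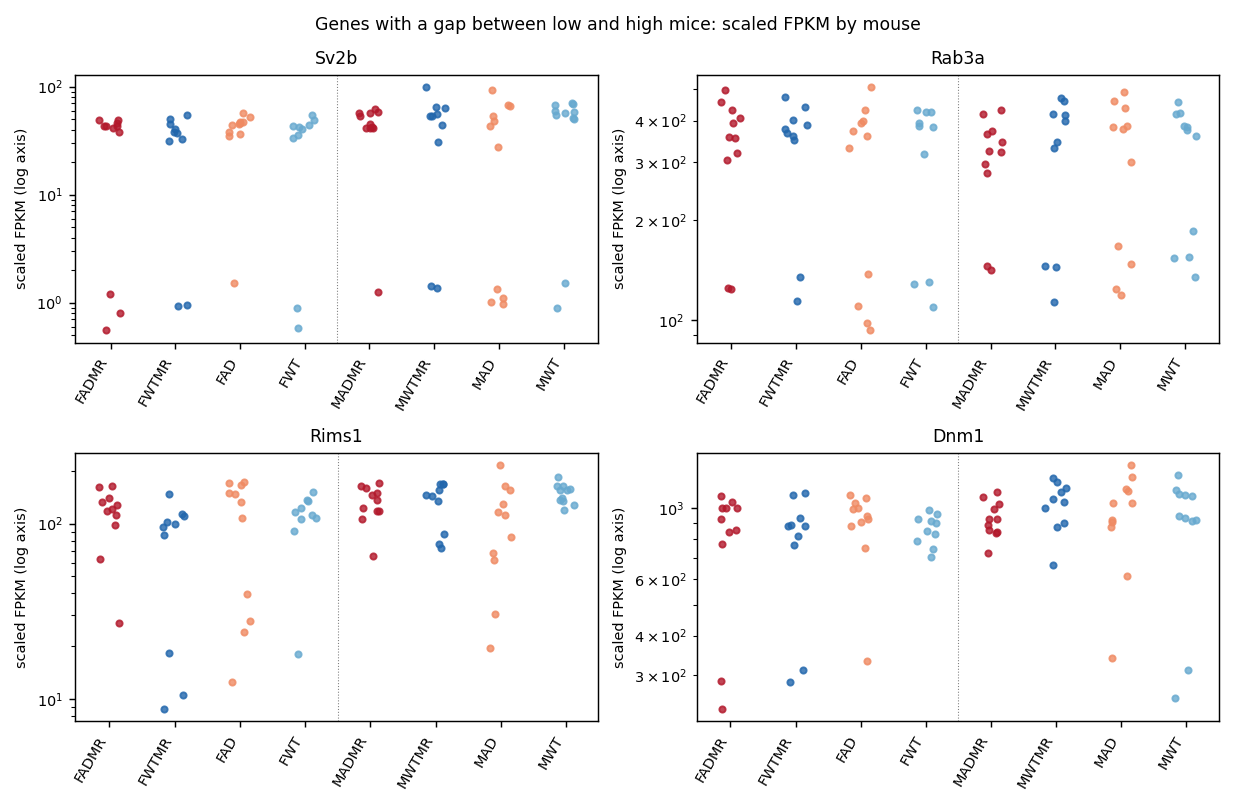
Scaled FPKM (log axis) of Sv2b, Rab3a, Rims1 and Dnm1 in each mouse of the 8 groups, females left and males right of the dotted line. Sv2b has 17 mice at or below 1.53 and none between that value and 27.7, with low mice in every group.

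Part of the other genes varied together. Deviations from the group mean were correlated over the 85 mice for all 595 pairs of the 35 genes, and the median Pearson's r was 0.146, beside -0.001 over all pairs of the 21297 loci tested. Of the pairs, 133 were positive and 8 negative at adjusted p under 0.05 for both Pearson's r and Spearman's rho, by 100000 permutations within groups. Among them 66 pairs, or 11.1% of the 595, had r over 0.5, beside 5.02% of all pairs of loci and 3.67% of pairs of 1 of the 35 genes with any locus. Levels were not matched in this comparison. The 66 pairs included all those of a set of 9 genes that each had at least 10 such partners: Sh3gl2, Amph, Nsf, Syp, Syn1, Syt1, Slc17a7, Cplx1 and Vamp1. The lowest r within this set was 0.517 and the median 0.771. Bsn and Vamp2 had 9 partners each. The set mixed a calcium sensor, a vesicle SNARE, a complexin, NSF, vesicle proteins, a transporter and endocytic genes, while 14 of the 35 genes, Sv2a, Sv2b, Sv2c, Rab3a, Rims1, Rims2, Cplx2 and Synj1 among them, had no partner over 0.5.

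The highest correlation was that of Syn1 with Slc17a7, at r = 0.89 and rho = 0.824 (permutation p of 1e-05, the smallest that the permutations can give, adjusted p = 8.75e-05 and 7.17e-05, r = 0.851 without the 2 mice farthest from the median of Syn1). Next came Sh3gl2 with Syp, at r = 0.878 and rho = 0.857 (the same permutation p, r = 0.84 without 2 mice). Unc13a and Unc13b had r = 0.509, below all pairs within the set of 9. Negative values were smaller. Slc17a6 and Slc17a7 had r = -0.377 and rho = -0.428 (permutation p = 0.00018 and 0.00013, r = -0.406 without 2 mice), and Cplx3 and Synpr had r = -0.434 and rho = -0.31 (permutation p = 0.00047 and 0.00666, r = -0.3 without 2 mice). All these values share the scaling of a library.

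**Figure D4:**
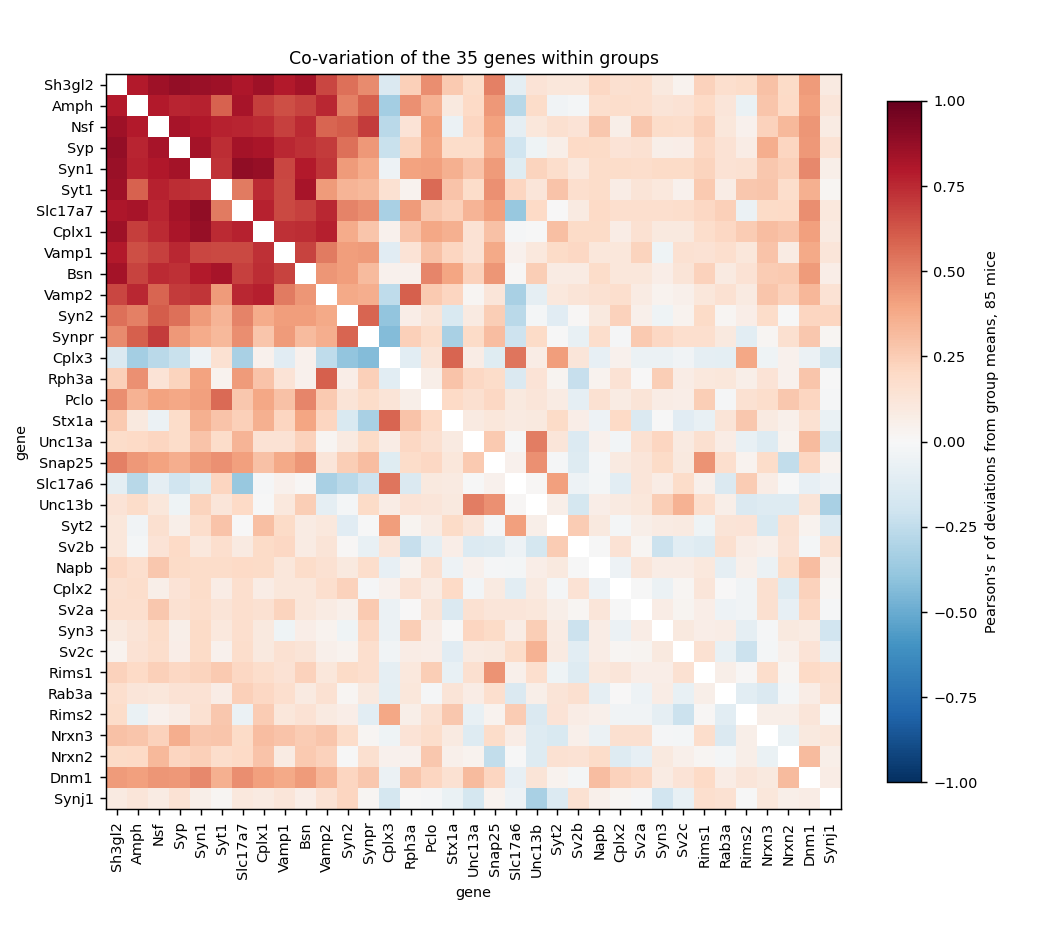
Pearson's r of deviations from the group mean over 85 mice for all pairs of the 35 genes, on a colour scale from -1 (blue) to 1 (red), genes ordered by their number of partners with r over 0.5. The block at the top left holds the 9 genes with at least 10 such partners, where the lowest r is 0.517, and Cplx3 and Slc17a6 are blue against parts of it.

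The bases upstream of the annotated start of the genes in the 2 highest pairs are shown because these genes moved most closely together. The windows are the 250 bases before the start, 5′ to 3′ on the gene's strand, from RefSeq on GRCm38.p6. Capitals mark the 8 letters TGACGTCA, the palindromic cAMP response element. Syn1 lies at chrX:20920919-20921168 (minus strand), Slc17a7 at chr7:45163671-45163920 (plus strand), Sh3gl2 at chr4:85205206-85205455 (plus strand) and Syp at chrX:7638330-7638579 (plus strand).
Syn1: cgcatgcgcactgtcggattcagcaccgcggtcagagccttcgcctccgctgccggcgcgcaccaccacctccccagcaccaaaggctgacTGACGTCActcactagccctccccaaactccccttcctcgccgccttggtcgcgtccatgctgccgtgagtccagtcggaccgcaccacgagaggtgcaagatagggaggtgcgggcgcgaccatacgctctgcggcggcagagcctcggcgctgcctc
Slc17a7: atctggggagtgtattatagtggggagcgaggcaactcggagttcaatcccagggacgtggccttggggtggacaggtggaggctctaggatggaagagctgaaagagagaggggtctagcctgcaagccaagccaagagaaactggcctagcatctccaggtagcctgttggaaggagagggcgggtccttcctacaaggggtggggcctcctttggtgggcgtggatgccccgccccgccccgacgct
Sh3gl2: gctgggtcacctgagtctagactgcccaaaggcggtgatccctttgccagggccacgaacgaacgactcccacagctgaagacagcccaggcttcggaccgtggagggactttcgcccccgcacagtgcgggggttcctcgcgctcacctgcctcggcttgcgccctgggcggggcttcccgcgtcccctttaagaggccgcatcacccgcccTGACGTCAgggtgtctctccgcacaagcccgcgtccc
Syp: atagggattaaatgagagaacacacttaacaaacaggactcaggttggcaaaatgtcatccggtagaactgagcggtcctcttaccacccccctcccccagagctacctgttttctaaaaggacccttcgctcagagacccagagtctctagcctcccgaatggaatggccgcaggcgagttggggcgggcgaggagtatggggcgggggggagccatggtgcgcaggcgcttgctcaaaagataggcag
The capital letters end 151 bases before the start in Syn1 and 29 bases before it in Sh3gl2, and do not occur in the windows of Slc17a7 and Syp. Promoter windows, each with 250 bases before and 50 after the start, were found for 30 of the 35 genes, 44 windows in all. TGACGTCA reads the same on both strands and was in 2 of these 44 windows, those of Syn1 and Sh3gl2, and in 1.79% of all 32851 windows. Other letters were searched on both strands too. TGACGTC, which overlaps it, was found for Rab3a as well (3.21% of all windows), and TGACGCAA for Slc17a6 (0.49%). Of the REST element, the left part TTCAGCACC and the TCAGCACC within it were found for Syn1 and Unc13a (0.371% and 1.65% of all windows). The right part was found for Unc13a (0.137%). The GGACAG within that was in 10 of the 44 windows, belonging to 8 genes, and in 22.2% of all windows. The exact letters of the joined REST element, in full or shortened, were found for none. Only 1 and 12 of all 32851 windows held them (0.00304% and 0.0365%), so their absence from 44 windows tells little. Forms with other letters at some positions were not searched. GGGCGG was in 24 of the 44 windows, belonging to 23 genes, and in 35.7% of all windows. TATAAA was in 2 of the 44, belonging to Sv2b, and in 13.6% of all windows. The NRF1 palindrome was found in its shorter form for Bsn (0.971% of all windows) and in its longer form for none (0.167%). GC content was 68% in Syn1, 67.6% in Sh3gl2, 61.2% in Slc17a7 and 56.4% in Syp, with 27, 22, 9 and 11 CpG dinucleotides. A match of letters is a description and not a measured site.

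Co-variation with markers of other tissue and cell types was computed for the 35 genes and 6 marker means, 210 relations in all, and 14 passed for both coefficients at adjusted p under 0.05. Cplx3, which is enriched in deep cortical and subplate neurons, followed the mean of 11 neocortex markers most closely (r = 0.798, rho = 0.738, permutation p of 1e-05 for both, adjusted p = 0.00105 and 0.0007, r = 0.776 without the 2 farthest mice). Slc17a6 followed the same mean (r = 0.606, rho = 0.639, the same permutation p, r = 0.589 without 2 mice) and the striatum mean (r = 0.449, rho = 0.499, permutation p = 4e-05 and 1e-05). Stx1a, Syt1 and Syt2 also rose and fell with the neocortex mean (r = 0.491, 0.347 and 0.444), whose summed level lay between 95 and 303 scaled FPKM over all mice. With the interneuron mean, 4 genes passed: Cplx1 (r = 0.469), Syt2 (0.401), Syt1 (0.366) and Cplx3 (0.353). The r of Syt1 there was 0.234 without the 2 farthest mice. The oligodendrocyte mean gave r of 0.401 for Rph3a, 0.362 for Syn3 and 0.361 for Slc17a6, and Syn2 fell with the striatum mean (r = -0.362). No gene passed with the thalamus or the choroid plexus mean.

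Another relation ran to the share of FPKM in loci without a gene symbol, a measure added after the data were seen. Over all 21297 loci tested, 37.1% fell and 28.3% rose with this share at adjusted p under 0.05 for both coefficients, by 100000 permutations within groups adjusted over all loci. By the same rule 21 of the 35 genes (60%) fell and 0 rose, with a median r of -0.359 beside -0.125 over all loci. An r of -0.5 or below was found for 12 of the 35 genes (34.3%) and for 16.2% of all loci, and the lowest r of any locus was -0.922. The lowest r of the 35 genes was that of Nsf (r = -0.813, rho = -0.827, permutation p of 1e-05 for both, r = -0.785 without the 2 farthest mice), followed by Syn1 (-0.788), Cplx1 (-0.734), Amph (-0.72), Sh3gl2 (-0.715) and Slc17a7 (-0.693). All 9 genes of the co-varying set had an r of -0.539 or below with it. Sv2b (0.0143), Cplx2 (-0.0219), Synj1 (-0.0284) and Slc17a6 (-0.0551) did not pass. The share is part of the same total as the genes, and the cause of the relation was not tested.

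**Figure D5:**
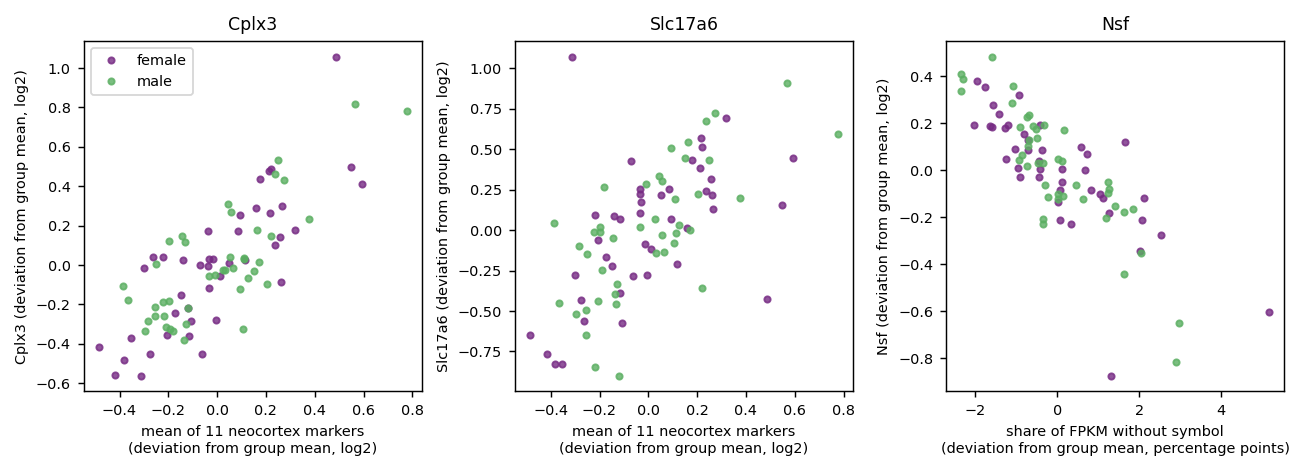
Deviations from the group mean in 85 mice, females in purple and males in green: Cplx3 and Slc17a6 (y axis, log2) against the mean of 11 neocortex markers (x axis, log2), and Nsf (y axis, log2) against the share of FPKM in loci without a symbol (x axis, percentage points). Cplx3 and Slc17a6 rise with the neocortex markers (r = 0.798 and 0.606) and Nsf falls as the share rises (r = -0.813).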

How the data were processed

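RNA was extracted from hippocampus with phenol-chloroform and made into libraries for a BGI-500 sequencer, per the labels' protocols. The submitters' processing notes name Trimmomatic 0.38, HISAT2, StringTie 1.3.4d and the build GRCm38.p6, with no parameters. The authors deposited FPKM for 56090 rows in 85 libraries, all mapped to samples by their column letters and numbers. Of these rows 14100 have no symbol. No identical libraries were found. Counts were not used here, so no count model was run and depth is unknown.

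Rows of the same symbol were summed. Values were scaled by median-of-ratios factors, and log2(scaled FPKM + 1) was fitted with limma 3.58.1 in R 4.3.3 (mean-variance trend, robust prior), with 8 group means and 77 residual degrees of freedom, on 21297 loci at 1 FPKM or more in at least 10 libraries. The 14 comparisons were averages, single contrasts and interactions, each Benjamini-Hochberg adjusted over all loci. Correlations used deviations from group means, with 100000 permutations within groups, two-sided, adjusted over 210 marker relations, over 595 gene pairs and, for the share of FPKM without a symbol, over all loci tested.

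On simulated data with 100 loci changed at each size among 21297, the genotype average recovered 74% of changes of 0.3 and 92% of 0.6 (log2), and genotype in females on restricted feed 25% and 67%. The changed loci were drawn from all loci, with normal noise, so these figures are not those of the 35 genes. The median within-group SD was 0.346 for the 35 genes and 0.284 for all loci. The split into low and high mice seen in 4 genes was not simulated. All 35 genes are named. Lowest, median and highest values are given for those called in any comparison and for the gene of smallest p by genotype and by feed. The others of the 6 with smallest p there have an estimate and p only. Further presynaptic genes are named where called, at most 10 per comparison. The genes, the lists and this rule were chosen with earlier results of these data known. Alternatives covered the pseudocount, filters, scaling, limma settings, array weights, a replicate block, covariates, single contrasts fitted alone, rows naming a gene alone and each library left out.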

Additional observations from a re-analysis of the deposited data

Results flagged for a closer look

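Single mice were checked in the 3 groups of 10 mice (FWTMR, FWT and MWTMR) only, since the criterion was not applied to groups of 11. In 11 of 105 such checks 1 mouse stood apart from the rest of its group by Dixon's criterion at 95%, which chance would give in about 1 in 20 groups. The values below are scaled FPKM.

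Snap25 was 518 in FWTMR replicate 6, with the nearest mouse of the group at 1310. Syn3 was 2.89 in FWT replicate 6, with the nearest at 26.2, and Rims1 was 18 in FWT replicate 2, with the nearest at 90.8. Sv2c was 0.185 in FWT replicate 2, with the nearest at 2.49, and 0.15 in FWTMR replicate 5, with the nearest at 1.91. Syn1 was 259, Bsn 41.9 and Amph 111 in MWTMR replicate 11, with the nearest mice at 387, 70.3 and 157. High values were those of Cplx2 at 254 in FWT replicate 1, with the nearest at 102, and of Pclo at 142 in FWTMR replicate 10 and 173 in MWTMR replicate 4, with the nearest at 57.3 and 77.3. Of the 3 genes low in MWTMR replicate 11, Syn1 and Amph belong to the set of 9 that varied together over all mice. Bsn was outside that set, with 9 partners at r over 0.5. The share of FPKM without a symbol was 9.15% in MWTMR replicate 11, the highest of its group. In FWTMR (mean 8.3%) it was 10.8% and 9.94% in replicates 5 and 6. In FWT (mean 8.35%) it was 10.4%, 10.5% and 8.68% in replicates 1, 2 and 6. The high Pclo values each came with the lowest share of their group, 6.74% in FWTMR replicate 10 and 4.59% in MWTMR replicate 4. The part of the share in these values was not tested.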

How the results depend on the processing

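The count of genes called between the sexes was 20, with 12 under the tissue marker covariates and 3 with the share of FPKM without a symbol as covariate, under which the difference of Slc17a7 reversed to 0.01006. By genotype in females on restricted feed the 1 called gene became 0 with no filter, a filter at 5 FPKM in 10 libraries, FPKM as deposited, equal totals, array weights, the neuronal covariate, only the groups compared, or the share as covariate. Array weights gave 1 called gene instead of 0 for genotype averaged over sex and feed and 1 instead of 0, Vamp2, for genotype in males on restricted feed. Of 210 marker relations 14 passed, and 24 with equal totals. Leaving out single libraries gave 18 to 21 genes by sex, 0 to 1 by genotype in females on restricted feed, and 0 for each other comparison. Over all loci, counts moved by more than 1.5 times without single libraries. Genotype in females on standard feed, called for 117 loci, ranged from 61 (without FAD replicate 8) to 617 (without FAD replicate 5), and FAD replicates 2, 6, 10 and 11 and FWT replicates 1 and 2 also moved it. Genotype in males on restricted feed, 26 loci, ranged from 9 (without MWTMR replicate 10) to 31, with MADMR replicates 2, 3, 4 and 9 and MWTMR replicates 1, 3, 4, 7 and 9 also moving it. Genotype in males on standard feed, 14 loci, went to 32 without MWT replicate 1, and genotype in females on restricted feed, 286 loci, to 189 without FWTMR replicate 6. The feed difference averaged over sex and genotype, 25 loci, went to 60 without MWT replicate 1 and to 43 without MAD replicate 8, and that in control males, 0 loci, to 55 without MWT replicate 1. Array weights called 1370 loci for genotype in females on standard feed and 1000 in males on restricted feed. Genotype by sex, called for 199 of all loci, was called for 8 to 1574 without single libraries, 57 of which moved it by more than 1.5 times, and for 1 under the block described next. With the neuronal covariate or the share as covariate it was called for 0 loci, and with the tissue marker covariates for 5 higher and 1 lower. The share averaged 7.42% (FADMR), 8.3% (FWTMR), 7.34% (FAD) and 8.35% (FWT) in females. In males it averaged 7.03% (MADMR), 6.18% (MWTMR), 6.45% (MAD) and 6.31% (MWT).

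Same-numbered mice did not deviate together on average (281 pairs, mean r = -0.00958, lowest -0.391). Of 85 libraries 7 correlated best with their own number, so no pairing by number was seen. A weak effect shared by number could be missed in this way, and the labels do not say what the numbers mean. With the replicate number as a block, 18 genes were called between the sexes instead of 20, Pclo and Sv2c dropping out, and Unc13b kept its call by genotype in females on restricted feed.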
